A study of Mus musculus with 8 samples.

Results

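Proteins made for secretion are built on ribosomes docked at the endoplasmic reticulum (ER). The data described here are the mRNA levels of 34 mouse genes for the machinery that takes such proteins across the ER membrane, removes their signal peptide and adds the first N-linked glycan. The genes were chosen by name, with earlier results of these data known, as were the further lists below. Shares of all tested genes beside their counts are therefore description and no independent test. The genes encode 5 subunits of the signal recognition particle (SRP), 1 of the SRP receptor and 8 of the Sec61 translocon and its partners. The others are 4 of the translocon-associated protein complex (TRAP), 5 of signal peptidase and 11 of the oligosaccharyltransferase (OST). All 34 names were found in the FPKM table, each with 1 Ensembl identifier, and were joined by it to the table of raw counts, which lists 48526 genes. Every one of the 34 had a mean count above 20 and was among the 15580 genes tested.

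RNA came from the neuro-intermediate lobe of the pituitary, where melanotropes make the hormone precursor POMC and secrete its products. Mice were of strain C57B6, the animals were males aged 3 months, and 1 library was made from each pool of 5 lobes. The 4 groups held 2 libraries each: wild type (WT), ACreb3l2, AXBP1, and mice with both transgenes (ACreb3l2/AXBP1, called double transgenic). A transgene of either kind encodes a leucine zipper with an acidic extension that binds its target, the transcription factor Creb3l2 or XBP1, and so holds it away from DNA. The rat POMC promoter drove both, so that expression was directed to POMC cells, while the dissected lobe also holds pituicytes, vessels and other cells. Of 2 lines selected per transgene, results were shown for 1 line. WT mice carried neither transgene.

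SRP binds a signal peptide as it leaves the ribosome and brings the ribosome to its receptor on the ER, and the chain is then threaded through the Sec61 channel. Signal peptidase cuts the signal peptide off, and OST moves a preassembled sugar tree from dolichol to asparagine residues. OST exists in 2 forms, one with the catalytic subunit STT3A that acts on chains still in the channel and one with STT3B that can act after it. In secretory cells this machinery carries a heavy load, and XBP1 and the CREB3 family are known as transcription factors of secretory pathway genes.

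Total counts per library ran from 28256086 to 37988912, and the 34 genes together held between 0.481% and 0.593% of them. Pomc alone held 6.91% to 14.6%, with its lowest share in double transgenic replicate 2 and its highest in WT replicate 2. All 6 melanotrope markers examined were measured above the filter, as were all 6 of each list for pituicytes, endothelium, macrophages, fibroblasts and the anterior lobe, so none was at 0. The transgenes hold part of the Creb3l2 and Xbp1 coding sequences, and the study selected lines with more transgene than endogenous mRNA. The counts of these 2 genes did not show this. Creb3l2 was below WT in both groups with ACreb3l2, and Xbp1 overlapped WT in both groups with AXBP1. Though planned as a check of the labels, these counts gave none, and the reason was not tested. Creb3l2 was at 28642 and 28156 normalized counts in WT mice, 27174 and 26738 in ACreb3l2 mice, 18810 and 22801 in AXBP1 mice, and 21176 and 14024 in double transgenic mice. Its log2 change was -0.08 in ACreb3l2 (edgeR adjusted p = 0.874) and -0.69 in the double transgenic (adjusted p = 0.0428). Xbp1 was at 11860 and 13417 in WT mice, 9142 and 9192 in ACreb3l2 mice, 12431 and 13831 in AXBP1 mice, and 17615 and 12837 in double transgenic mice. Normalized counts are counts scaled to a common depth with TMM factors.

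Promoter windows of RefSeq on GRCm38.p6 were matched for 25 of the 34 genes. Srp19, Srp68, Sec61a1, Tram1, Ssr2, Spcs3, Sec11c, Ostc and Tusc3 have no entry. The letters searched on both strands, from 250 bases before to 50 after the start, were ACGTG, the core of sites for CREB3 proteins and XBP1, its extended form GACGTGG, and CCAAT followed by CCACG with 9 bases between them, the ER stress element. The 250 bases before the start are printed for Srprb and Dad1, which are among the 4 genes with the largest falls in the double transgenic, and for Stt3a and Stt3b, 2 catalytic subunits of OST with different results. Ssr1 was added after its match was seen, since it holds the extended letters. Capitals mark ACGTG or GACGTGG as read on either strand, and all 5 run 5′ to 3′ along the gene's own strand, which is the minus strand. Srprb lies at chr9:103202066-103202315, Ssr1 at chr13:37994209-37994458, Dad1 at chr14:54253930-54254179, Stt3a at chr9:36767623-36767872 and Stt3b at chr9:115310469-115310718.
Srprb: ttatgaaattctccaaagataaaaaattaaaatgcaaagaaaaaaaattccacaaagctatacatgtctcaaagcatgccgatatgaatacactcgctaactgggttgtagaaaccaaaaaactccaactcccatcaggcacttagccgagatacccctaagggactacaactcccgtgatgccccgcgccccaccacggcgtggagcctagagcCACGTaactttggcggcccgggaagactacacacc
Ssr1: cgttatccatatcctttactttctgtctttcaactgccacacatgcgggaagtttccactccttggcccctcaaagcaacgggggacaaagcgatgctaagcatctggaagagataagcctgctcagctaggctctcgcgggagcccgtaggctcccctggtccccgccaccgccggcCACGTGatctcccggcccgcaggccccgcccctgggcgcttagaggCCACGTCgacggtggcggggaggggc
Dad1: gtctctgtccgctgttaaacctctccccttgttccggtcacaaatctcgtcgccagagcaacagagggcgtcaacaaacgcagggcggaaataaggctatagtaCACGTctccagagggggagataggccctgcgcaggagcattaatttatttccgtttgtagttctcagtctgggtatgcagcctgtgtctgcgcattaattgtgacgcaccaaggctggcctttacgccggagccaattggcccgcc
Stt3a: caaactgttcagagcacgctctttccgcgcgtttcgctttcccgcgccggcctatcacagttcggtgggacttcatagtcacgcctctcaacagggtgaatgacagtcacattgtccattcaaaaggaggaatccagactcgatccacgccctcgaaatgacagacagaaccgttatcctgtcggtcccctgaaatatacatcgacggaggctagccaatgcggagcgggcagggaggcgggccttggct
Stt3b: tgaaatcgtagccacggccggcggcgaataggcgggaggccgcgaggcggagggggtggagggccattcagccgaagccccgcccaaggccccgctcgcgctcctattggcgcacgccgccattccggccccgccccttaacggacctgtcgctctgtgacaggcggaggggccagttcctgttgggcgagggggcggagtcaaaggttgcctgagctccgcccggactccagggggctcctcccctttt

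In Srprb the match began at base -35 on the opposite strand, in Dad1 at -146, and in Ssr1 the letters occurred at -72, -71 and -25, with GACGTGG at -26. The matches at -72 and -71 of Ssr1 overlap as the palindrome CACGTG, and the one at -25 lies inside GACGTGG. The Stt3a and Stt3b windows held none of the letters. GENCODE M21 places the gene start of Dad1 175 bases further upstream than RefSeq does, and that of Srprb 72 bases, so parts of these stretches lie within the gene there. Of the 25 genes with a window, 10 (40.0%) held ACGTG, beside 28.4% of 11169 tested genes and 21.8% of all 27025 genes of the promoter table. GACGTGG was in 2 of 25, Sec63 and Ssr1, beside 4.12% of tested genes, and the ER stress element was in 0 of 25, beside 0.143%. ACGTG was in 4 of the 13 genes with a window that were called lower against WT (30.8%) and in 6 of the 12 that were not called (50.0%). Base composition differs between windows, with 46.8% G and C in Srprb and 70.4% in Stt3b over the bases printed.

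Levels in WT were compared between genes on the FPKM scale, which divides by gene length. Rpn1, a subunit shared by both OST forms, was highest at 243 ± 33.8 FPKM (SD, n = 2), followed by Sec61b, the small beta subunit of the channel, at 203. The next 16 genes, down to the signal peptidase subunit Sec11a at 91.7 FPKM, each overlapped their neighbour in the order within the 2 WT libraries. The catalytic subunit Stt3a stood at 84.9 FPKM and Stt3b at 40.3. Sec61a2, the paralog of the channel-forming Sec61a1, was at 5.49 FPKM beside 118 for Sec61a1. Tram2, the paralog of Tram1, was lowest at 0.529 FPKM beside 105. Abundance did not follow the step: OST subunits stood at both ends of the first 27 places of the order.

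**Figure D1:**
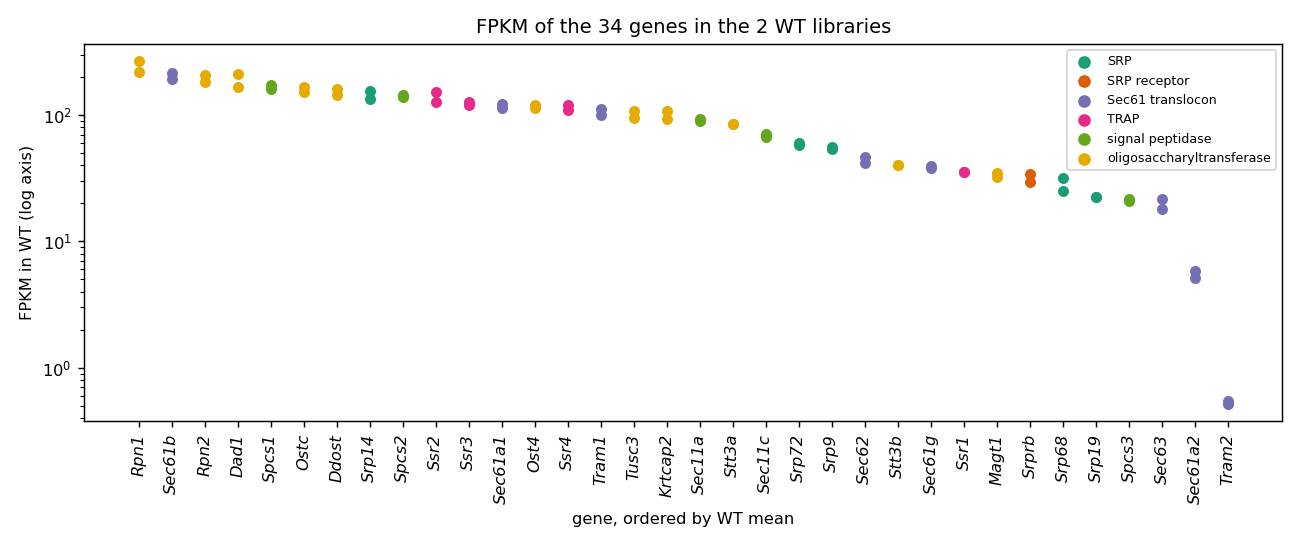
FPKM (log axis) of the 34 genes in the 2 WT libraries, ordered by the mean and coloured by step. Rpn1 is highest at 243 FPKM, and Sec61a2 at 5.49 and Tram2 at 0.529 lie apart at the low end.

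Part of the machinery was lower than WT in ACreb3l2 and in the double transgenic. In ACreb3l2 11 of the 34 genes were called lower (edgeR adjusted p under 0.05) and 0 higher, where 2.50% of all tested genes were called lower and 0.539% higher. In the double transgenic 20 were called lower and 0 higher, beside 6.99% and 3.06% of all tested genes. In AXBP1 0 genes were called by edgeR, among the 34 as among all tested genes (0%), although 17 of the 34 had an unadjusted p under 0.05, beside 9.97% of all. DESeq2 called 0 of the 34 in AXBP1, beside 79 of 15580 tested genes. For the 34 genes the median log2 changes in ACreb3l2, AXBP1 and the double transgenic were -0.34, -0.22 and -0.40, beside 0.01, 0.00 and 0.01 over all tested genes. All 3 comparisons share the same WT libraries. On the log2(FPKM + 1) scale the median of the 34 was -0.38 in AXBP1 and -0.33 in ACreb3l2, where those of all genes were -0.13 and 0.02. With library size alone the double transgenic median was -0.24 beside 0.17 over all genes. Without WT replicate 2 the AXBP1 median was -0.14 beside 0.01.

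Both libraries lay below both WT libraries for 26 of the 34 genes in ACreb3l2, beside 23.2% of all tested genes, for 26 in AXBP1, beside 23.8%, and for 28 in the double transgenic, beside 28.7%. WT had the highest group mean for 27 genes, and the double transgenic the lowest for 20. WT replicate 2 was above WT replicate 1 for 28 of the 34, and double transgenic replicate 2 below replicate 1 for 27. These are also the libraries with the highest and lowest Pomc. Without WT replicate 2, 3 of the 34 were called in ACreb3l2 and 11 in double transgenic mice. Leaving out ACreb3l2 replicate 1 or replicate 2 left 1 call in ACreb3l2, leaving out either AXBP1 library left 5, and without double transgenic replicate 2 there were 6 calls in the double transgenic. Calls among all tested genes fell in the same fits. In ACreb3l2 against WT they went from 473 to 158 without WT replicate 2, 195 and 153 without ACreb3l2 replicate 1 or 2, and 280 and 277 without AXBP1 replicate 1 or 2. In the double transgenic they went from 1566 to 355 without WT replicate 2 and to 218 without double transgenic replicate 2.

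All 6 melanotrope markers had a log2 change below 0 in the double transgenic, as did 30 of the 34 genes and 48.3% of all tested genes. Tbx19, the transcription factor Tpit that directs Pomc, was at 21306 and 23073 normalized counts in WT mice, 18294 and 14649 in ACreb3l2 mice, 13827 and 14976 in AXBP1 mice, and 14454 and 9590 in double transgenic mice. Its log2 change in the double transgenic was -0.88 ± 0.19 (SE, adjusted p = 0.0245), and that of Pomc was -0.84 ± 0.25 (adjusted p = 0.0614). The summed level of the 6 melanotrope markers was 3626154 and 5413328 in WT mice and 2929876 and 2158358 in double transgenic mice, with 3593061 to 4011181 in ACreb3l2 and 3330270 to 3906025 in AXBP1. Pomc makes up most of this sum. Of the other markers Pcsk2 was at -0.66 in the double transgenic (adjusted p = 0.162), while Drd2, Pax7 and Pcsk1n were at -0.19, -0.08 and -0.04 (adjusted p = 0.464 to 0.828). Of these 6 markers 1 was called lower in the double transgenic and 0 in ACreb3l2. Of the 6 pituicyte markers, which summed to 12781 and 10405 in WT mice and 12801 and 15061 in double transgenic mice, 1, the water channel Aqp4, was called higher at 0.51 ± 0.14 (adjusted p = 0.0464). All 6 pituicyte markers had a log2 change above 0 in ACreb3l2 (median 0.47, 3 at an unadjusted p under 0.05, beside 16.8% of all tested genes) and in the double transgenic (median 0.43, 4 at such a p, beside 29.7%). All 6 endothelial markers were above 0 in AXBP1 (median 0.42) and in the double transgenic (median 0.50), as were 6 of 6 fibroblast and pericyte markers in AXBP1 (median 0.32) and 5 of 6 in the double transgenic (median 0.20). All 6 macrophage markers were above 0 in ACreb3l2 (median 0.14). Of the 6 anterior lobe markers 5 were below 0 in AXBP1 (median -0.61), among them the hormone genes Gh at -1.46 ± 0.44 and Tshb at -0.93 ± 0.31 (SE, edgeR adjusted p = 0.484 each). Their summed level was 149234 and 226845 in WT mice, 153943 and 118116 in ACreb3l2 mice, 76448 and 78096 in AXBP1 mice, and 202039 and 99649 in double transgenic mice. The endothelial, fibroblast, macrophage and anterior lobe lists had 0 calls by edgeR in the 3 comparisons with WT, with at most 2 of 6 markers at an unadjusted p under 0.05 in each, where 16.8% of all tested genes passed in ACreb3l2, 9.97% in AXBP1 and 29.7% in the double transgenic. Fewer melanotropes and less RNA per melanotrope cannot be told apart in these bulk samples, and the part of any of these marker differences in the changes below was not tested.

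**Figure D2:**
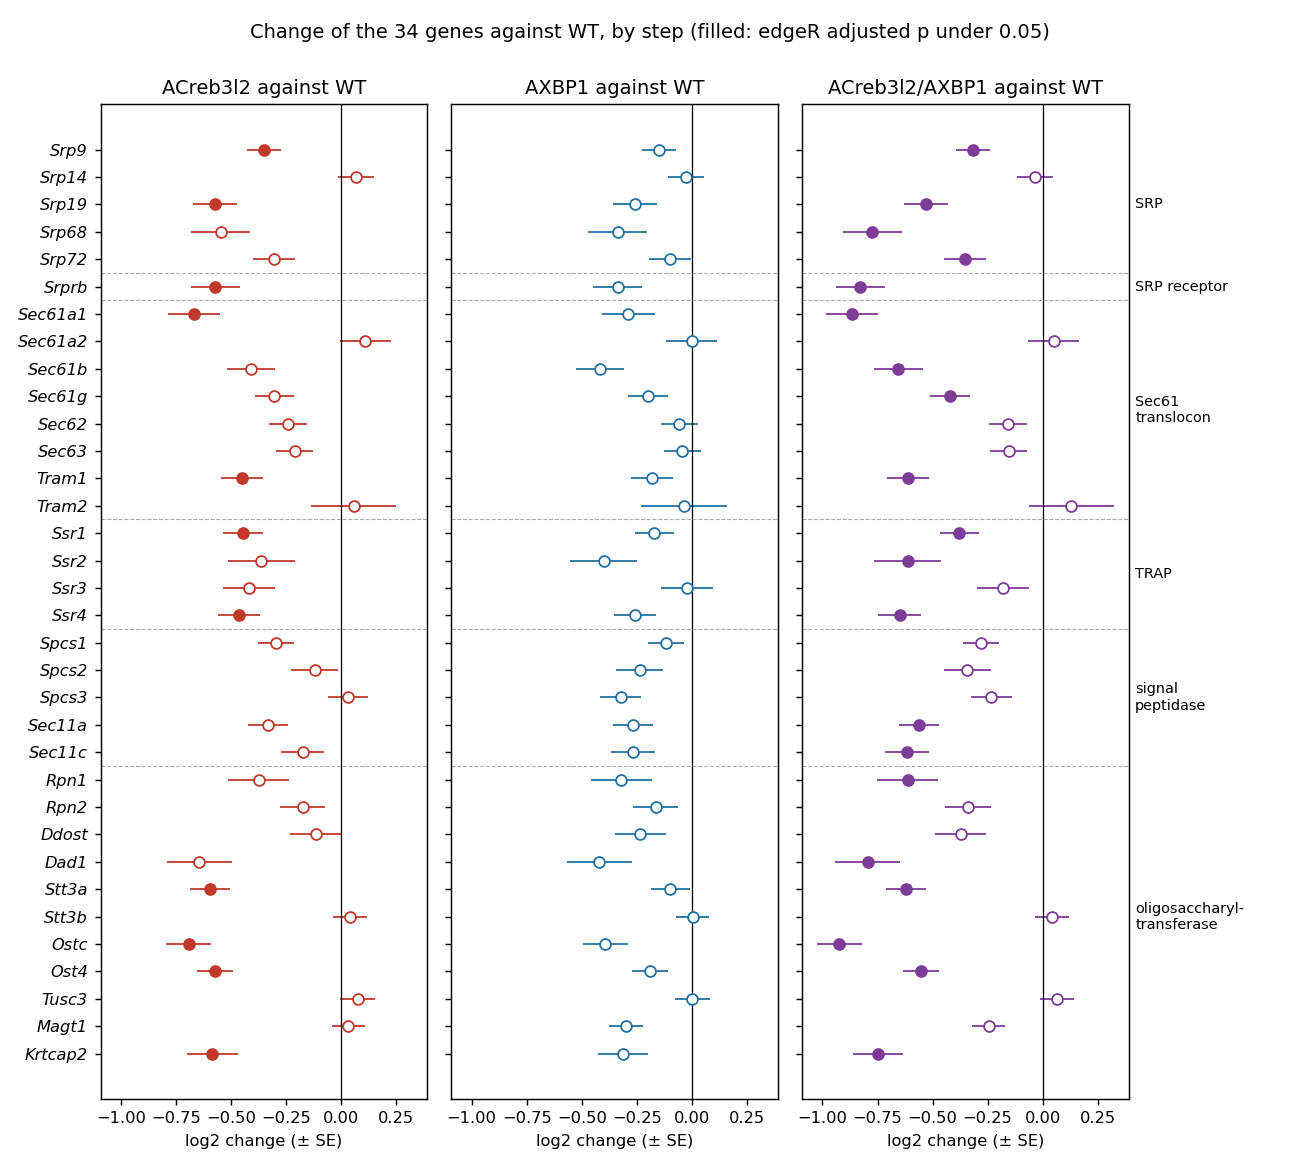
Log2 change against WT (x axis, point ± SE) of each of the 34 genes by step for ACreb3l2, AXBP1 and the double transgenic, with filled points for genes called by edgeR. In the double transgenic 20 points are filled, in AXBP1 none, and Srp14, Sec61a2, Tram2, Stt3b and Tusc3 stay near 0 in all 3 panels.

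Of SRP, every gene but Srp14 was called lower in the double transgenic, that is 4 of 5, beside 6.99% of all tested genes. In ACreb3l2 2 of 5 were called lower, beside 2.50%, and the median was -0.35 in both groups. Srp68 and Srp72 form a pair on the SRP RNA. Srp68 was at 2364 and 3107 normalized counts in WT mice, 2008 and 1731 in ACreb3l2 mice, 2111 and 2216 in AXBP1 mice, and 1704 and 1498 in double transgenic mice, where its log2 change was -0.77 ± 0.13 (SE, adjusted p = 0.0102). For Srp72 the counts were 6982 and 7435 in WT mice, 5545 and 6117 in ACreb3l2 mice, 6842 and 6614 in AXBP1 mice, and 6047 and 5244 in double transgenic mice (-0.35 ± 0.10, adjusted p = 0.0447). All 6 transgenic libraries lay below both WT libraries for each gene of the pair. Srp19, needed to assemble the particle, had 627 and 648 counts in WT mice, 433 and 423 in ACreb3l2 mice, 548 and 518 in AXBP1 mice, and 443 and 441 in double transgenic mice. It fell by 0.57 ± 0.10 in ACreb3l2 and by 0.53 ± 0.10 in the double transgenic (adjusted p = 0.0148 and 0.0133), and these 2 groups overlapped neither WT nor AXBP1. Srp9 sits with Srp14 at the end of the particle that slows translation. Srp9 was at 2415 and 2525 in WT mice, 1872 and 2003 in ACreb3l2 mice, 2266 and 2182 in AXBP1 mice, and 2006 and 1962 in double transgenic mice, with changes of -0.35 ± 0.08 and -0.32 ± 0.08 (adjusted p = 0.0440 and 0.0341) in the 2 groups with ACreb3l2. Its partner Srp14 was not called, with log2 changes from -0.03 to 0.07 and groups that overlapped WT each time. The Srp9 model overlaps a pseudogene on the other strand, and whether counting used strand is not given in the sources used here.

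The beta subunit of the SRP receptor, Srprb, which anchors the receptor in the membrane, showed 1 of the larger falls. It was at 1712 and 2029 normalized counts in WT mice, 1342 and 1172 in ACreb3l2 mice, 1455 and 1505 in AXBP1 mice, and 1105 and 1001 in double transgenic mice. No transgenic library reached the lower WT library, and the double transgenic libraries were below all others. The log2 change was -0.57 ± 0.11 (SE, adjusted p = 0.0233) in ACreb3l2, -0.34 ± 0.11 (adjusted p = 0.476) in AXBP1 and -0.83 ± 0.11 (adjusted p = 0.00301) in the double transgenic. Srprb (mm10 chr9:103188032-103202137, minus strand) shares 888 exonic bases with a second annotated gene, Gm20425, on the same strand, so its reads could have been counted in part elsewhere.

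At the translocon, the core channel genes and Tram1 were lower, while the paralogs and the Sec62 and Sec63 pair were not called. In the double transgenic 4 of 8 genes were called lower and in ACreb3l2 2 of 8, beside 6.99% and 2.50% of all tested genes. Sec61a1 (mm10 chr6:88503579-88518905, minus strand) encodes the pore. It had 13353 and 14909 normalized counts in WT mice, 8846 and 8941 in ACreb3l2 mice, 11580 and 11544 in AXBP1 mice, and 8764 and 6743 in double transgenic mice. The 4 groups did not overlap, although double transgenic replicate 1 was only just below the lower ACreb3l2 library. The log2 change was -0.67 ± 0.12 (SE, adjusted p = 0.0164) in ACreb3l2, -0.29 ± 0.12 (adjusted p = 0.495) in AXBP1 and -0.87 ± 0.12 (adjusted p = 0.00331) in the double transgenic. An antisense gene, Gm44170, overlaps its exons.

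The paralog Sec61a2 was at 501 and 419 in WT mice, 502 and 489 in ACreb3l2 mice, 467 and 452 in AXBP1 mice, and 488 and 464 in double transgenic mice. These groups all overlapped WT, and the log2 changes lay between -0.00 and 0.11 with SEs of 0.12. Its exons overlap those of Nudt5 on the other strand. The FPKM ratio of Sec61a1 to Sec61a2 was 19.4 and 23.9 in WT mice, 11.9 and 12.1 in ACreb3l2 mice, 17.4 and 16.9 in AXBP1 mice, and 12.5 and 10.4 in double transgenic mice. Ratios between genes were not tested.

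The small channel subunits Sec61b and Sec61g were called in the double transgenic. Sec61b had 3037 and 3510 normalized counts in WT mice, 2464 and 2465 in ACreb3l2 mice, 2456 and 2442 in AXBP1 mice, and 2301 and 1854 in double transgenic mice (log2 change -0.66 ± 0.11, adjusted p = 0.00848). Both single transgenic groups were at nearly the same level. Sec61g was at 1157 and 1184 in WT mice, 904 and 994 in ACreb3l2 mice, 1029 and 1009 in AXBP1 mice, and 891 and 860 in double transgenic mice (-0.42 ± 0.09, adjusted p = 0.0211), again below WT in each transgenic library. Sec62 and Sec63, which serve chains delivered after their synthesis, were not called, with log2 changes from -0.24 to -0.04.

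Tram1 contacts the chain as it enters the membrane. Its counts were 10862 and 12057 in WT mice, 8033 and 8732 in ACreb3l2 mice, 9778 and 10430 in AXBP1 mice, and 7944 and 7055 in double transgenic mice. The changes were -0.45 ± 0.10 (SE, adjusted p = 0.0376) in ACreb3l2 and -0.61 ± 0.10 (adjusted p = 0.00652) in the double transgenic, and no transgenic library reached WT. Tram2 was low throughout, at 113 and 139 in WT mice, 136 and 125 in ACreb3l2 mice, 127 and 118 in AXBP1 mice, and 123 and 152 in double transgenic mice, with overlapping groups and changes from -0.04 to 0.13.

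TRAP binds the channel and aids the entry of some signal peptides. It had 3 of 4 genes called lower in the double transgenic and 2 of 4 in ACreb3l2, beside 6.99% and 2.50% of all tested genes. Ssr4, the delta subunit, was at 2764 and 3143 normalized counts in WT mice, 2211 and 2063 in ACreb3l2 mice, 2411 and 2521 in AXBP1 mice, and 1994 and 1770 in double transgenic mice. It fell by 0.47 ± 0.10 (adjusted p = 0.0307) in ACreb3l2 and by 0.65 ± 0.10 (adjusted p = 0.00446) in the double transgenic. The 4 groups did not overlap. Ssr1, the alpha subunit whose promoter is printed above, had 12995 and 13491 counts in WT mice, 9400 and 10042 in ACreb3l2 mice, 12105 and 11421 in AXBP1 mice, and 10711 and 9647 in double transgenic mice. Here the 2 groups with ACreb3l2 overlapped each other and lay below the rest (-0.45 ± 0.09 and -0.38 ± 0.09, adjusted p = 0.0269 and 0.0283). Ssr2, the beta subunit, was at 4485 and 5626 in WT mice, 3836 and 4024 in ACreb3l2 mice, 3817 and 3840 in AXBP1 mice, and 3825 and 2788 in double transgenic mice, with wide spread and a change there of -0.61 ± 0.15 (adjusted p = 0.0384). Ssr3, the gamma subunit, was not called. In ACreb3l2 it changed by -0.42 ± 0.12 (edgeR adjusted p = 0.0998), with both libraries below both WT libraries, as for 23.2% of all tested genes. Its 2 double transgenic libraries differed, at 10515 and 13227, so that they overlapped WT.

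Of signal peptidase, the alternative proteases Sec11a and Sec11c were called lower in the double transgenic (2 of 5, beside 6.99% of all tested genes). In ACreb3l2 0 of 5 subunits were called by edgeR, with 2 at an unadjusted p under 0.05, beside 16.8% of all tested genes. In AXBP1 0 of 5 were called and 4 had an unadjusted p under 0.05, beside 9.97%, with a median of -0.27 against -0.18 in ACreb3l2. Both AXBP1 libraries lay below both WT libraries for all 5, as they did for 26 of the 34 genes and 23.8% of all tested genes. Sec11a had 3794 and 3803 normalized counts in WT mice, 2953 and 3080 in ACreb3l2 mice, 3067 and 3238 in AXBP1 mice, and 2775 and 2367 in double transgenic mice (log2 change -0.56 ± 0.09, adjusted p = 0.00699). Sec11c had 1683 and 1863 in WT mice, 1589 and 1550 in ACreb3l2 mice, 1498 and 1447 in AXBP1 mice, and 1246 and 1066 in double transgenic mice (-0.62 ± 0.10, adjusted p = 0.00687). For each, both single transgenic groups lay between WT and the double transgenic. The FPKM ratio of Sec11a to Sec11c stayed between 1.12 and 1.39 in the 8 libraries. Spcs1, Spcs2 and Spcs3, which have no protease activity, changed by -0.28, -0.34 and -0.23 in the double transgenic (adjusted p = 0.0579, 0.0683 and 0.128). Exons of Sec11a overlap a pseudogene on the other strand and Nmb on the same strand.

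The calls in OST lay among subunits of its STT3A form and subunits common to both forms. The 3 subunits known only in the STT3A form, Stt3a, Ostc and Krtcap2, were all called lower in both ACreb3l2 and the double transgenic. Their medians there were -0.59 and -0.75, and 2.50% and 6.99% of all tested genes were called lower. Of the 3 subunits of the STT3B form, Stt3b, Tusc3 and Magt1, 0 were called by edgeR in any of the 7 comparisons, with medians of 0.04 in both groups. In AXBP1 the medians were -0.31 and 0.00. At an unadjusted p under 0.05, 0 STT3B-form genes passed in ACreb3l2 and 1, Magt1, in AXBP1 and in the double transgenic, where 29.7% of all tested genes passed. The difference between the 2 sets of 3 was not tested.

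Ostc (mm10 chr3:130695912-130709444, minus strand) links STT3A to the channel and had the largest fall of the 34 genes in ACreb3l2 and the double transgenic. It was at 5464 and 6253 normalized counts in WT mice, 3627 and 3625 in ACreb3l2 mice, 4493 and 4423 in AXBP1 mice, and 3359 and 2821 in double transgenic mice. All 4 groups were apart from one another. The change was -0.69 ± 0.10 (SE, adjusted p = 0.00626) in ACreb3l2, -0.39 ± 0.10 (adjusted p = 0.474) in AXBP1 and -0.92 ± 0.10 (adjusted p = 0.00152) in the double transgenic. Krtcap2, the second such adaptor, followed the same order of group means, with 2049 and 2484 in WT mice, 1525 and 1496 in ACreb3l2 mice, 1860 and 1791 in AXBP1 mice, and 1471 and 1229 in double transgenic mice. It fell by 0.58 ± 0.11 (adjusted p = 0.0244) and 0.75 ± 0.11 (adjusted p = 0.00540) in the 2 groups with ACreb3l2. Trim46 overlaps its exons on the other strand.

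The catalytic subunit Stt3a (mm10 chr9:36729344-36767679, minus strand) was called lower in both groups with ACreb3l2. Its counts were 11918 and 12072 in WT mice, 7474 and 8412 in ACreb3l2 mice, 11129 and 11277 in AXBP1 mice, and 8149 and 7448 in double transgenic mice. The 2 groups with ACreb3l2 overlapped each other, and AXBP1 stood just below WT. The log2 change against WT was -0.59 ± 0.09 (SE, adjusted p = 0.00734) in ACreb3l2, -0.10 ± 0.09 (adjusted p = 0.696) in AXBP1 and -0.62 ± 0.09 (adjusted p = 0.00413) in the double transgenic. Stt3b (mm10 chr9:115242581-115310421, minus strand) was at 6655 and 6780 in WT mice, 6914 and 6907 in ACreb3l2 mice, 6821 and 6632 in AXBP1 mice, and 6697 and 7115 in double transgenic mice, with changes of 0.04, 0.00 and 0.04 and an SE of 0.08 each. Its 8 libraries lay between 6632 and 7115, and the groups were close to one another. Neither gene shares exonic bases with another annotated gene.

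The ratio of Stt3a to Stt3b on the FPKM scale was 2.11 and 2.10 in WT mice, 1.19 and 1.33 in ACreb3l2 mice, 1.89 and 1.97 in AXBP1 mice, and 1.42 and 1.08 in double transgenic mice. The groups with ACreb3l2 overlapped each other and were below AXBP1, which was below WT. Tusc3 and Magt1 are the alternative oxidoreductase subunits of the STT3B form. Tusc3 had 4954 and 4605 normalized counts in WT mice, 5022 and 5040 in ACreb3l2 mice, 4682 and 4887 in AXBP1 mice, and 5130 and 4867 in double transgenic mice, with changes from 0.00 to 0.07. Magt1 had 4580 and 4686 in WT mice, 4596 and 4868 in ACreb3l2 mice, 3757 and 3772 in AXBP1 mice, and 3871 and 3946 in double transgenic mice. For Magt1 the 2 groups with AXBP1 lay below the other 2 without overlap, but neither passed the test against WT (-0.30 ± 0.08, adjusted p = 0.474, and -0.25 ± 0.08, adjusted p = 0.0648). The FPKM ratio of Tusc3 to Magt1 was 2.93 to 3.12 in WT and ACreb3l2 and 3.47 to 4.01 in the groups with AXBP1.

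**Figure D3:**
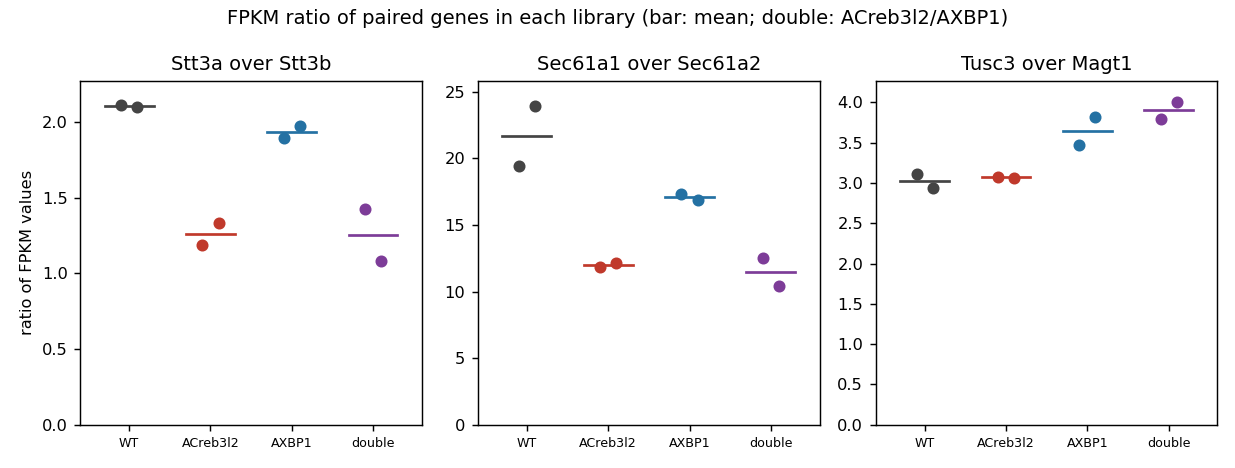
Ratio of FPKM values (y axis) of Stt3a to Stt3b, Sec61a1 to Sec61a2 and Tusc3 to Magt1 in each of the 8 libraries (points) with group means (bars). The first 2 ratios are lowest in the groups with ACreb3l2, and the last is highest in the groups with AXBP1.

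Among subunits common to both OST forms, 3 of 5 were called lower in the double transgenic and 1 in ACreb3l2, beside 6.99% and 2.50% of all tested genes. Ost4, a very small subunit that holds the catalytic one, was at 2334 and 2531 normalized counts in WT mice, 1682 and 1585 in ACreb3l2 mice, 2125 and 2137 in AXBP1 mice, and 1703 and 1613 in double transgenic mice. It fell by 0.57 ± 0.08 (adjusted p = 0.00543) in ACreb3l2 and by 0.55 ± 0.08 (adjusted p = 0.00448) in the double transgenic. As for Stt3a, the 2 groups with ACreb3l2 overlapped, though here exons are shared with Agbl5 on the other strand. Dad1, named for the cell death that follows its loss, had 4701 and 6195 counts in WT mice, 3450 and 3515 in ACreb3l2 mice, 4233 and 3901 in AXBP1 mice, and 3532 and 2754 in double transgenic mice. Its 2 WT libraries were far apart, and it changed by -0.65 ± 0.15 (adjusted p = 0.0541) in ACreb3l2 and by -0.79 ± 0.15 (adjusted p = 0.0147) in the double transgenic. Rpn1, which holds substrates near the active site, was at 16005 and 20208 in WT mice, 13357 and 14564 in ACreb3l2 mice, 14649 and 14331 in AXBP1 mice, and 13313 and 10351 in double transgenic mice (-0.61 ± 0.14, adjusted p = 0.0262). Rpn2 and Ddost were not called, at -0.34 and -0.37 in the double transgenic (adjusted p = 0.0630 and 0.0686). A further shared subunit outside the 34, Tmem258, was called at -0.55 ± 0.11 there (adjusted p = 0.0144); it was named after its value was seen.

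**Figure D4:**
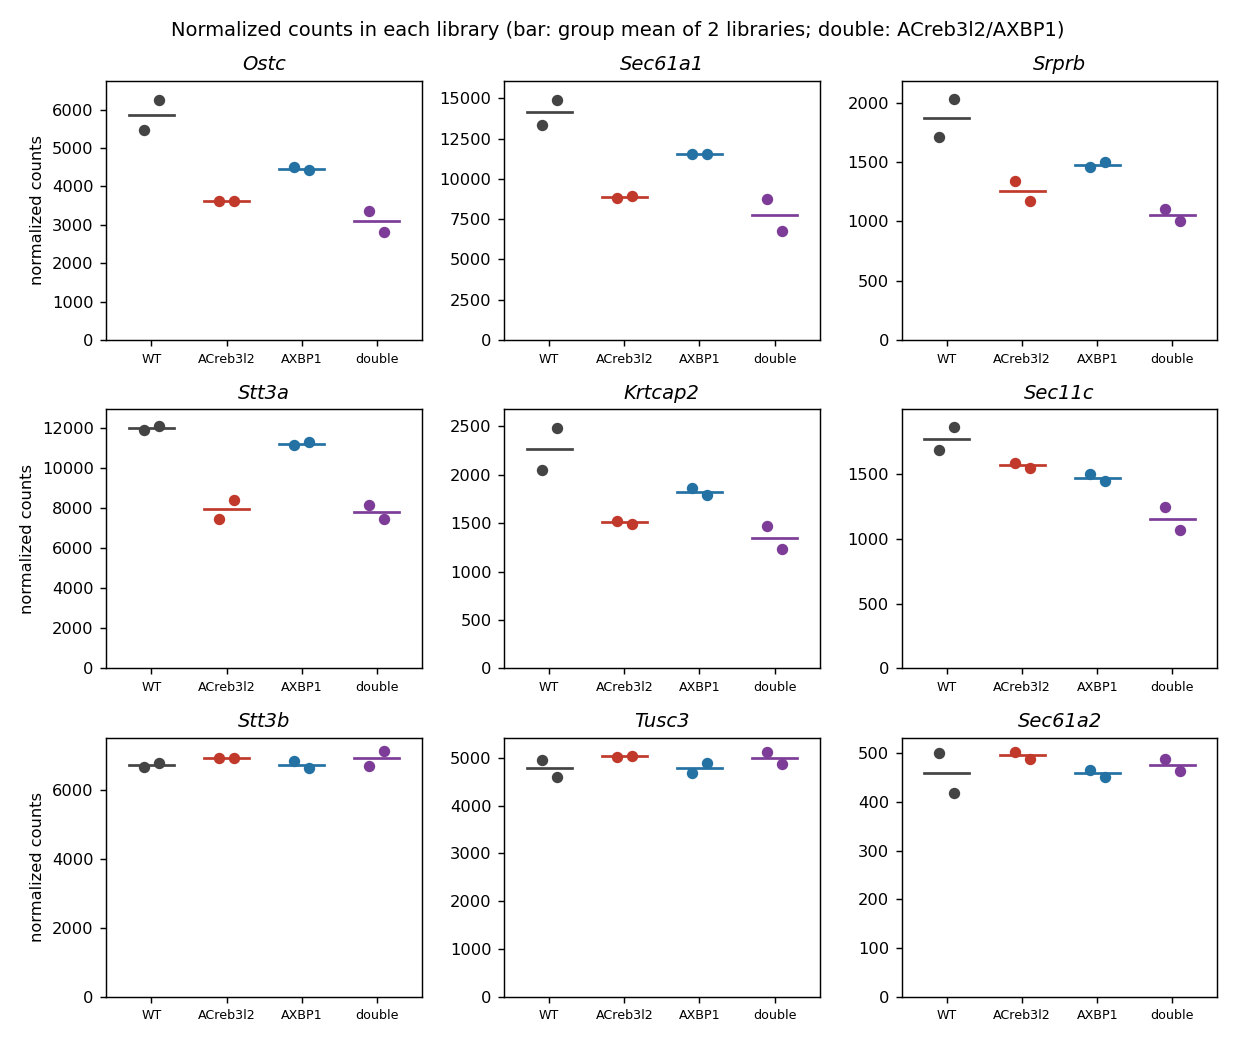
Normalized counts (y axis from 0) in each library (points) with the group mean (bar) for 6 genes called lower in the double transgenic and for Stt3b, Tusc3 and Sec61a2, which were not called. Ostc, Sec61a1, Srprb, Krtcap2 and Sec11c are lowest on average in the double transgenic, and for Stt3a the double transgenic and ACreb3l2 overlap.

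Whether the 2 transgenes differed from each other was compared directly. Between ACreb3l2 and AXBP1 1 of the 34 genes was called, Stt3a, which was lower in ACreb3l2 by a log2 difference of -0.50 ± 0.09 (SE, adjusted p = 0.0401), where 0.680% of all tested genes were called lower. This call was lost on both FPKM scales, with library size alone as the scaling, with the replicate block, and without any 1 of the 4 libraries compared (adjusted p up to 0.321 over the libraries left out). The median difference of the 34 was -0.17, with 22 genes lower in ACreb3l2, beside 49.2% of all tested genes. On the log2(FPKM + 1) and log2(FPKM + 0.1) scales this median was 0.05, above 0, but the median of all genes was then 0.15 and 0.18. Magt1 (0.33 ± 0.08, adjusted p = 0.107) and Spcs3 (0.35 ± 0.09, adjusted p = 0.161) were higher in both ACreb3l2 libraries than in both AXBP1 libraries and were not called.

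The double transgenic was compared with each single one to ask what the second transgene added. Against AXBP1 1 of the 34 was called lower, again Stt3a at -0.52 ± 0.09 (adjusted p = 0.0337), beside 0.616% of all tested genes, and Ostc (-0.53 ± 0.10, adjusted p = 0.0543) and Sec61a1 (-0.58 ± 0.12, adjusted p = 0.0732) came next to the threshold. Stt3a lost this call with library size alone, on both FPKM scales, with the replicate block, and without either AXBP1 library or double transgenic replicate 2 (adjusted p up to 0.331). Against ACreb3l2 0 of the 34 were called by edgeR or DESeq2, beside 0% of all tested genes by edgeR and 41 of 15580 by DESeq2. An unadjusted p under 0.05 was reached by 7, beside 7.14% of all, and the median was -0.15. That median was -0.06 without double transgenic replicate 2 and -0.25 without replicate 1. With library size alone it was -0.07, where the median of all genes was 0.09. Sec11c had the largest difference in that comparison, -0.44 ± 0.10 (adjusted p = 0.572), with both double transgenic libraries below both ACreb3l2 libraries. The interaction is the change in the double transgenic minus the sum of the changes in the 2 single groups on the log2 scale. It was called for 0 of the 34 by edgeR or DESeq2, beside 0% of all tested genes by edgeR and 4 of 15580 by DESeq2. At an unadjusted p under 0.05 there were 0 of the 34, beside 2.48% of all, and the values ran from -0.17 to 0.30 with a median of 0.08. The median of the interaction was 0.01 without WT replicate 2 or without double transgenic replicate 1, and 0.20 on the log2(FPKM + 1) scale, where that of all genes was 0.09.

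The wider pathway was read from a list of 74 further genes, of which 70 were found and 69 were tested. In ACreb3l2 12 of 69 were called lower and in the double transgenic 20 of 69, with 0 higher in either, beside 2.50% and 6.99% of all tested genes called lower, and the medians were -0.15 and -0.23. In AXBP1 0 of 69 were called by edgeR, 10 had an unadjusted p under 0.05, beside 9.97% of all tested genes, and DESeq2 called 2, beside 79 of 15580. Genes for the sugar donor held most of the calls: of 31 for dolichol-linked oligosaccharide synthesis, which builds the tree that OST transfers, 9 were called lower in ACreb3l2 and 13 in double transgenic mice. The background for these and for the shorter sublists is the same 2.50% and 6.99%. Of 19 genes for tail-anchored and other membrane insertion 1 was called in each group, Ubl4a at -0.57 and -0.49 (adjusted p = 0.0335 and 0.0322). Of 8 chaperones of translocation 2 were called in the double transgenic, Dnajb9 and Dnajb11. Of 8 genes for glycan trimming and lectin folding 1 was called in each, and of 2 further SRP and receptor genes, Srpr was called in both groups and Srp54b in the double transgenic.

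Gmppb, which makes GDP-mannose, had the largest change of the list. It was at 3242 and 3875 normalized counts in WT mice, 1348 and 1274 in ACreb3l2 mice, 2450 and 2338 in AXBP1 mice, and 1267 and 784 in double transgenic mice, or -1.44 ± 0.20 (SE, adjusted p = 0.0115) in ACreb3l2 and -1.80 ± 0.20 (adjusted p = 0.00337) in the double transgenic. No group overlapped another. Mogs, the glucosidase that trims the outermost glucose after transfer, had 3343 and 4228 counts in WT mice, 2209 and 1982 in ACreb3l2 mice, 2646 and 2595 in AXBP1 mice, and 1796 and 1417 in double transgenic mice (-0.85 ± 0.14 and -1.24 ± 0.14, adjusted p = 0.0119 and 0.00207). Alg3, a mannosyltransferase of the tree, had 573 and 750 in WT mice, 370 and 362 in ACreb3l2 mice, 514 and 573 in AXBP1 mice, and 367 and 303 in double transgenic mice (-0.85 ± 0.15 and -0.98 ± 0.15, adjusted p = 0.0159 and 0.00556). For Mogs and Alg3, both libraries of each group with ACreb3l2 lay below both AXBP1 libraries.

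Alg5, which makes dolichol-phosphate-glucose, and Uap1, which makes UDP-GlcNAc, were named after their values were seen because, like Stt3a, they were also called against AXBP1. Alg5 was at 1204 and 1279 normalized counts in WT mice, 779 and 773 in ACreb3l2 mice, 1169 and 1116 in AXBP1 mice, and 820 and 733 in double transgenic mice. Against AXBP1 it changed by -0.56 ± 0.10 in ACreb3l2 and by -0.56 ± 0.10 in the double transgenic (adjusted p = 0.0287 and 0.0329). Uap1 had 2213 and 2260 in WT mice, 1421 and 1464 in ACreb3l2 mice, 1899 and 2037 in AXBP1 mice, and 1403 and 1303 in double transgenic mice, and against AXBP1 it changed by -0.45 ± 0.08 and -0.54 ± 0.08 (adjusted p = 0.0430 and 0.0202). In both genes the groups with ACreb3l2 lay below AXBP1 without overlap. In all, 3 of 69 were called in each of these 2 comparisons, beside 0.680% and 0.616% of all tested genes called lower.

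**Figure D5:**
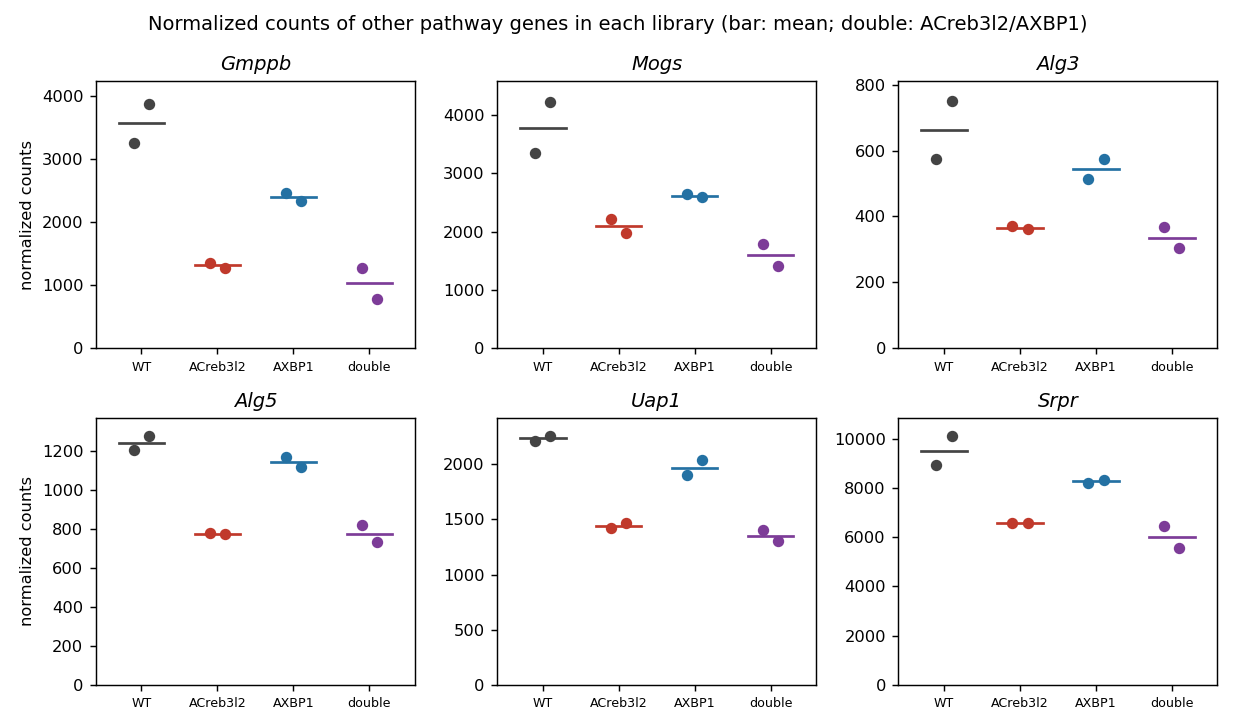
Normalized counts (y axis from 0) of Gmppb, Mogs, Alg3, Alg5, Uap1 and the SRP receptor alpha gene Srpr in each library (points) with group means (bars). Each gene is lower in both libraries of the 2 groups with ACreb3l2 than in both WT libraries, and Gmppb in the double transgenic is at 1267 and 784 beside 3242 and 3875 in WT mice.

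How well single calls held was read from 8 other settings and from fits that left out each of the 8 libraries. In the double transgenic Srprb, Sec61a1, Ssr4, Stt3a, Ostc and Ost4 were called against WT in all 16 of these fits. In ACreb3l2 Sec61a1, Stt3a, Ostc, Ost4 and Krtcap2 were called in all 8 settings. Of these, Stt3a was lost without ACreb3l2 replicate 1 (adjusted p = 0.0642), Ost4 without replicate 2 (adjusted p = 0.0636) and Ostc without either (adjusted p up to 0.0621). Sec61a1 and Krtcap2 were lost without either ACreb3l2 library or WT replicate 2, and Krtcap2 also without either AXBP1 library, with adjusted p up to 0.112 and 0.157. Srp9 and Srp72 were the least stable: Srp9 was called in 1 of 8 fits with a library left out in ACreb3l2, and Srp72 in 1 of 8 in the double transgenic. As a measure of the spread between pools, the median SD over mean of the 34 genes was 6.69% in WT, 4.13% in ACreb3l2, 2.34% in AXBP1 and 8.39% in the double transgenic.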

How the data were processed

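RNA of 8 libraries from pooled neuro-intermediate lobes was analysed, grouped by the labels alone. The authors used Trimmomatic for trimming, Tophat for alignment to mm10 and HTSeq-count for counting, as their methods state. The deposited raw counts are whole reads per Ensembl gene without normalization. The FPKM values deposited by the authors are scaled to gene length and mapped fragments. The annotation release, the strand setting and the tool behind the FPKM table for these libraries are not given in the sources used here. The study's reporting summary lists Cufflinks without tying it to that table. The labels state ribosomal depletion and the methods a poly(A) kit.

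Counts were fitted in edgeR 4.0.16 (R 4.3.3) with TMM factors from 0.913 to 1.10, 1 mean per group over all 8 libraries and the robust quasi-likelihood test. Genes with a mean median-ratio count above 20 were kept, and p-values were adjusted by Benjamini and Hochberg over 15580 genes within a comparison. Fits were checked on simulated counts. SE is the log2 change divided by the root of the F statistic. Replicates are pools. Each p-value rests on a spread between pools that was estimated jointly over all 4 groups and moderated across genes. It is not the spread of the compared groups alone. The replicate numbers did not pair the libraries (r of deviations from -0.197 to 0.0887). Genes named with library values were those called in any comparison, 5 paralog pairs and the 3 other pathway genes with the largest called changes against WT. The 34 genes and all lists were chosen with earlier results of these data known. Alternatives were DESeq2 1.42.0, its size factors, library size alone, no filter, limma 3.58.1 on log2(FPKM + 1) and log2(FPKM + 0.1), a replicate block, the compared groups only, and each library left out. Gene coordinates and exon overlaps are from GENCODE M21, and promoters from RefSeq.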

Additional observations from a re-analysis of the deposited data

Results flagged for a closer look

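Stt3a, the catalytic subunit of one form of OST, differed between the 2 single transgenic groups by a log2 difference of -0.4963 (ACreb3l2 minus AXBP1, edgeR adjusted p = 0.0401), lower in both ACreb3l2 libraries than in both AXBP1 libraries. The call was lost with library size alone, on both FPKM scales, with the replicate block and without any 1 of the 4 libraries compared (adjusted p up to 0.321). Against the shared WT libraries its change was -0.59 in ACreb3l2 and -0.10 in AXBP1.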

How the results depend on the processing

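No call changed its direction under any setting tried. Of the 34 genes, ACreb3l2 against WT had 11 calls, 7 with library size alone, 7 with a replicate block, 5 with the compared groups only and 18 with no filter on low counts, and 1 to 15 when a library was left out. The double transgenic against WT had 20, 13 with the compared groups only, 16 with the block, and 6 to 22 when a library was left out. Calls among all tested genes also moved. ACreb3l2 against WT had 473 of all 15580, 304 with library size alone, 321 with the block and 275 with the compared groups only. With no filter it had 1455 of all 29547 genes then tested. The double transgenic against WT had 1566 of all, 654 with the compared groups only and 1113 with the block. With no filter AXBP1 against WT had 4 of the 34 genes in place of 0, beside 628 of all 29547. The double transgenic against ACreb3l2 then had 1 of the 34 in place of 0, beside 513. ACreb3l2 against AXBP1 had 1, beside 112 of all 15580 genes tested. It had 0 with library size alone, either FPKM scale or the block, beside 88, 30, 45 and 95 of all. It had 2 with the compared groups only, 3 in DESeq2 and 6 with no filter, beside 145, 260 and 730. The double transgenic against AXBP1 had 1, beside 97 of all. It had 0 with library size alone, either FPKM scale or the block, beside 55, 32, 37 and 58. It had 5 in DESeq2 and 10 with no filter, beside 287 and 755. The interaction had 0 in every setting with all 8 libraries, beside 4 of all genes in DESeq2 and 126 with no filter. It was not fitted with the compared groups only.

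Other pathway genes called were 2 to 13 (ACreb3l2 against WT) and 6 to 26 (double transgenic against WT) when a library was left out. The latter were 20, 13 with library size alone and 12 with the compared groups only. AXBP1 against WT had 7 with no filter and 2 in DESeq2 in place of 0. Library size alone moved the median of all genes to 0.17 in the double transgenic against WT, and log2(FPKM + 1) moved it to -0.13 in AXBP1 against WT and to 0.15 in ACreb3l2 against AXBP1, where the median of the 34 genes was then 0.05 in place of -0.17. The cause of these shifts was not tested. The replicate block rests on the replicate numbers of the labels, which did not pair the libraries.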
